A study of Mus musculus with 6 samples.

Results

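The 40 genes described here carry glucose into lactate, feed the pentose phosphate pathway, store glucose as glycogen, or sense and answer low oxygen. They were taken as a list of gene names and matched to the names in the deposited count table. All 40 were found among its 16266 genes, and all 40 passed the filter on low counts that left 12219 genes for testing. The libraries came from mouse bone marrow-derived macrophages (BMDMs), macrophages grown in culture from marrow progenitors. Every library came from cells given lipopolysaccharide (LPS), a bacterial cell wall component that activates macrophages through a Toll-like receptor, for 24 h. The 3 WT libraries came from wild-type cells and the 3 KO libraries from cells lacking Capns1, the small regulatory subunit shared by the classical calpain proteases. The series title places the deletion in myeloid cells. The genotype field of the KO libraries reads CAPNS1-KO, CAPNS2-KO and CAPNS3-KO for replicates 1, 2 and 3, while the series text names Capns1 alone. Strain, age, sex and the driver of the deletion are absent from the labels used here, and no library without LPS was analysed. The labels do not say whether replicates came from separate animals or cultures, so the p-values measure only how far these samples spread, and that spread may be technical.

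Glycolysis splits glucose into pyruvate and yields ATP without oxygen, and lactate dehydrogenase then regenerates the NAD+ that the pathway consumes. Hexokinase, phosphofructokinase and pyruvate kinase catalyse its largely irreversible steps, and the pentose phosphate pathway branches off after hexokinase to make NADPH and ribose phosphate. The transcription factor HIF-1 pairs an oxygen-labile alpha subunit with the constant partner ARNT, and prolyl hydroxylases mark the alpha subunit for destruction when oxygen is present. LPS is known to stabilise HIF-1 alpha and to raise glycolysis in macrophages, and most genes of glycolysis are HIF-1 targets. Because no library without LPS was analysed, the values below compare genotypes within LPS-treated cells and show no response to LPS.

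Total counts ran from 32631163 to 40913819 per library, so that 3 counts corresponded to between 0.0733 and 0.0919 CPM, the count scaled to library size. Capns1 (chr7:30186934-30198883) stood at 492, 478 and 521 CPM in WT replicates 1, 2 and 3 and at 9.51, 9.94 and 9.13 CPM in the KO replicates, low in each KO library. All 10 macrophage markers listed were measured, and their summed level was 36005 to 43300 CPM in WT and 34296 to 39416 CPM in KO. Markers of fibroblasts and marrow stroma summed to 249 to 297 CPM in WT and to 626 to 746 CPM in KO. Of these 15 stromal markers 14 were tested, 10 were higher in KO, and none was at 0 in all libraries. Over all tested genes 8.44% were called higher and 6.21% lower. The macrophage sums overlapped between genotypes, and the stromal sums did not. Most of the macrophage sum was Lyz2, at 23796 to 31886 CPM in WT and 23444 to 27659 CPM in KO. Of the 10 macrophage markers 8 had negative and 2 positive log2 fold changes. Cd14 was called lower (-0.34, adjusted p = 0.0304). Csf1r was lower in every KO library but was not called (-0.35, adjusted p = 0.0600). DESeq2 called 2 of the 10 lower. Of 12 markers of neutrophils and granulocyte precursors 2 were higher in KO (S100a8 by 0.75 and S100a9 by 0.49 on the log2 scale) and 4 lower (Mpo, Elane, Prtn3 and Cebpe, with log2 fold changes of -0.99, -0.93, -0.93 and -0.90). Their sum was 1161 to 1571 CPM in WT and 1105 to 1466 CPM in KO. The part of these markers in the results below was not tested. In a bulk sample, fewer cells of a type and less RNA per cell cannot be told apart, and this holds for every gene below. On the second principal component of all genes, which held 15.9% of the variance, WT 3 (at -23.2) and KO 2 (at 25.5) lay away from the remaining libraries of their genotype. Calls of members that changed without both are given below or in the closing section, and those of the related lists beside each list. The libraries left then differ by group on this component too, so such values cannot be read as genotype alone.

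Glycolytic genes moved in both directions in KO cells, and the increases were the more numerous. Of the 40 members, 13 (32.5%) differed between genotypes at an adjusted p under 0.05, where adjusted p is the Benjamini-Hochberg value of edgeR's quasi-likelihood test over all tested genes. Over all tested genes the share was 14.6%. The 9 genes that rose in KO (22.5% of members, against 8.44% of all tested genes) were the hexokinase Hk3, the phosphofructokinase Pfkl, Aldoa, Gapdh, Eno1, Pkm, Ldha, the lactate exporter Slc16a3 and the peptide hormone gene Adm. The 4 that fell (10.0% of members, against 6.21% of all tested genes) were Pfkfb4, Eno2, Ldhb and Ndrg1. The KO replicates all lay above the WT replicates in 12 members (30.0%, against 18.2% of tested genes) and all below them in 7 (17.5%, against 15.5%), and the groups overlapped in the other 21. The median log2 fold change, KO over WT, was 0.070 over the 40 members and -0.011 over all tested genes. Of the 13 genes called, Pfkl, Eno1, Ldhb, Slc16a3 and Adm were called under each of the 20 other ways of processing the data, including those that leave out a library, and no called member changed sign under any of them. Adm passed the stricter filters on level only through its KO libraries, so the fits that use them are no separate support for its call.

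**Figure D1:**
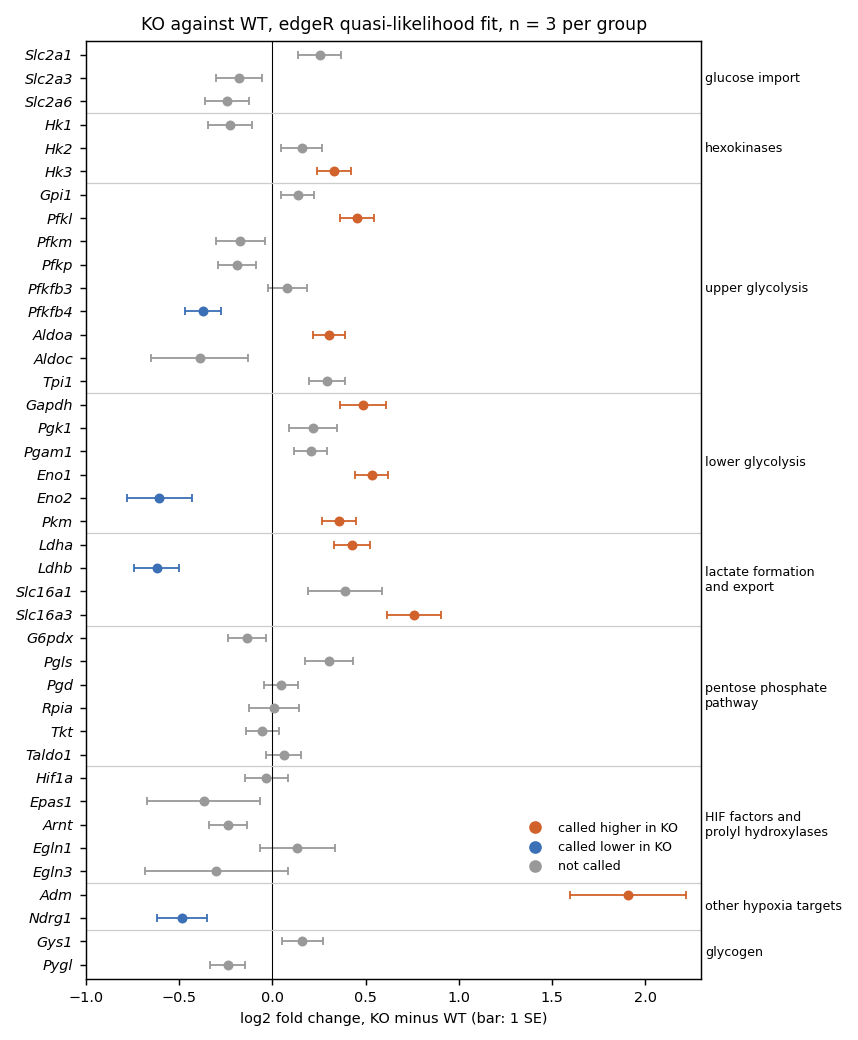
Log2 fold change (KO over WT) of each of the 40 members with its standard error, on the horizontal axis, ordered by step of the pathway. Adm lies farthest to the right at 1.91 and Ldhb farthest to the left at -0.62, while the pentose phosphate genes other than Pgls lie between -0.14 and 0.06. Orange points were called higher, blue points lower and grey points were not called.

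Many of these enzymes have near-identical copies or processed pseudogenes in the mouse genome, and how reads shared with such copies were counted is not stated in the labels. In GENCODE M21 transcripts, 12 of the 40 members shared over 10% of their 32-base words with other genes, among them 6 of the 13 that were called. The shares were 54.7% for Pgk1, 37.1% for Pgam1, 34.1% for Pkm, 32.3% for Ldhb, 28.4% for Eno1, 27.9% for Gapdh, 18.9% for Ldha and 12.9% for Aldoa, so the levels of these genes are uncertain. Slc16a3 shared 0% of its words.

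Promoter windows of 6 members are shown because HIF-1 is known to bind the core sequences ACGTG and GCGTG. They belong to the 4 called members of smallest adjusted p that hold a match and to the 2 uncalled members of highest mean level. Each is 300 bases from RefSeq (GRCm38.p6), from 250 before the annotated start to 50 after it, read 5′ to 3′ on the gene's strand, with ACGTG or GCGTG on either strand in capitals (on the other strand they read CACGT and CACGC). The windows are chr7:110627407-110627706 (+) for Adm, chr4:150236458-150236757 (+) for Eno1, chr11:120948817-120949116 (+) for Slc16a3, chr6:142507908-142508207 (-) for Ldhb, chr6:124814109-124814408 (-) for Tpi1 and chr4:149166656-149166955 (-) for Pgd.
Adm: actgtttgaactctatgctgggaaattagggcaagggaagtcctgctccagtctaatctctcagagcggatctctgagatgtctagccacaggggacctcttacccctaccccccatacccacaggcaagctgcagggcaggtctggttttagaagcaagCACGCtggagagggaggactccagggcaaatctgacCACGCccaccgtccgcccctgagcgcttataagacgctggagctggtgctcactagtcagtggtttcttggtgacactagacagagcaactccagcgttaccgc
Eno1: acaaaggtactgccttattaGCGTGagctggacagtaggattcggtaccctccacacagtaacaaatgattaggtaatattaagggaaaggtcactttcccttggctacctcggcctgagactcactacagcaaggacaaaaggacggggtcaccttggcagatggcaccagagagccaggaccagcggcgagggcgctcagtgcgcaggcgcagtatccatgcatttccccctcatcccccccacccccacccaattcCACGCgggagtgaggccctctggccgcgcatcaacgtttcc
Slc16a3: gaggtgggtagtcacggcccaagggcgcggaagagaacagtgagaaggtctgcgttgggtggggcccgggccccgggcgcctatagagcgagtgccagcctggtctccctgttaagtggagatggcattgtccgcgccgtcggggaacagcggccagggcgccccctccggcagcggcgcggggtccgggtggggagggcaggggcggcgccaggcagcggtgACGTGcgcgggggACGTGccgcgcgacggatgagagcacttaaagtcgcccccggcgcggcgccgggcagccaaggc
Ldhb: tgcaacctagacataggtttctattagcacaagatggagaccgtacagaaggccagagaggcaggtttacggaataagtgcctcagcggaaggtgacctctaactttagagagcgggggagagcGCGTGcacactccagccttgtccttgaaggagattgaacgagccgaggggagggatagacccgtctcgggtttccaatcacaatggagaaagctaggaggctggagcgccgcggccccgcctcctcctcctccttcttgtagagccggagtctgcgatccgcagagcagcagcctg
Tpi1: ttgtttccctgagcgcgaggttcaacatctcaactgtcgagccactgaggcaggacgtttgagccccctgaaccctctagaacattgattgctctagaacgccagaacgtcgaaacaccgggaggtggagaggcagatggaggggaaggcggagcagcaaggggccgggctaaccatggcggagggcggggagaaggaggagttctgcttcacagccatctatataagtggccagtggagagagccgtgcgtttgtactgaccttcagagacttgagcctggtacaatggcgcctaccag
Pgd: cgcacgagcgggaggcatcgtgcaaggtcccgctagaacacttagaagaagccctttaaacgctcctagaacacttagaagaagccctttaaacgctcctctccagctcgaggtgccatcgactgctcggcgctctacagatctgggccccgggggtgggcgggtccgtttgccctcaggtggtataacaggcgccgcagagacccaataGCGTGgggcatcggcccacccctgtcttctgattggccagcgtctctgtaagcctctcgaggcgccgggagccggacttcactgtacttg
The window of Slc16a3 lies at a transcript start inside the gene's full span, downstream of the gene's outermost base, and not at that base. Slc16a3 held ACGTG 27 and 14 bases before that transcript start, and Adm held GCGTG on the other strand 90 and 54 bases before its start. Eno1 held GCGTG 230 bases before its start and, on the other strand, 9 bases after it. Ldhb, which fell, held GCGTG 126 bases before its start, Pgd held it 40 bases before, and Tpi1 held neither core. Of the 37 members with a window in the RefSeq table (Slc2a3, Epas1 and Ndrg1 had none), 33 (89.2%) held ACGTG or GCGTG, against 12628 of 27025 genes (46.7%) overall. A match was present in 9 of 9 members that rose, in 2 of 3 that fell and in 22 of 25 that were not called. ACGTG alone was present in 54.1% of members and 21.8% of all genes, and the E-box CACGTG, which contains ACGTG on both strands, in 13.5% and 8.1%. The members' windows were also richer in G and C, with a median of 61.0% against 52.8%. A match describes letters in the window and does not show binding.

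The glucose transporters and the hexokinases Hk1 and Hk2 did not pass the test, and Hk3 did. Slc2a1 (chr4:119108745-119137330) encodes GLUT1, the main basal glucose transporter, and stood at 18.0, 19.1 and 22.7 FPKM (fragments scaled to transcript length and library size) in the 3 WT libraries and at 25.4, 22.4 and 24.7 FPKM in the 3 KO libraries, here and below in replicate order. KO 2 lay below WT 3, so the groups overlapped, and the log2 fold change was 0.25 ± 0.11 (SE, n = 3 per group, adjusted p = 0.17). Without WT 3 and KO 2 it was 0.39 with an adjusted p of 0.00556. Slc2a6, which encodes a transporter of lysosomal membranes and had the highest level of the 3 transporters, gave 49.6 ± 7.18 FPKM in WT and 42.7 ± 2.77 FPKM in KO (SD, n = 3), which is -0.24 ± 0.12 on the log2 scale (adjusted p = 0.208). Slc2a3, which encodes the high-affinity transporter GLUT3, lay between 2.66 and 3.62 FPKM in all libraries. With 0 of 3 transporters called by edgeR, 1 had an unadjusted p under 0.05 in the higher direction and none in the lower, and DESeq2 and limma-voom called 0.

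Hk3 (chr13:55005985-55021475), the hexokinase typical of myeloid cells, stood at 69.2, 70.4 and 71.9 FPKM in WT and at 91.3, 85.1 and 93.9 FPKM in KO. All KO libraries lay above all WT libraries, and Hk3 rose by 0.33 ± 0.089 on the log2 scale (adjusted p = 0.0289). Hk2, the inducible hexokinase that is a well-known HIF-1 target, was at 13.5, 11.8 and 13.5 FPKM in WT and 16.6, 13.5 and 13.8 FPKM in KO, so the log2 fold change was 0.16 ± 0.11 (adjusted p = 0.408). Hk1, the housekeeping hexokinase, lay between 19.8 and 29.0 FPKM, and its log2 fold change was -0.23 ± 0.12 (adjusted p = 0.234). Hk3 was no longer called when KO 1, KO 3, WT 1 or WT 2 was left out, with an adjusted p of at most 0.130.

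In upper glycolysis, which turns hexose phosphates into triose phosphates, Pfkl and Aldoa rose and Pfkfb4 fell among 9 genes. Pfkl (chr10:77986947-78009807), the liver-type phosphofructokinase subunit and the main one in these cells, stood at 37.1, 36.8 and 39.6 FPKM in WT. In KO it stood at 52.7, 50.5 and 54.7 FPKM. The groups were far apart relative to their spread, and Pfkl rose by 0.45 ± 0.092 on the log2 scale (adjusted p = 0.00706). The muscle-type Pfkm and platelet-type Pfkp subunits were lower in level and gave log2 fold changes of -0.17 (adjusted p = 0.438) and -0.19 ± 0.10 (adjusted p = 0.252).

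Pfkfb3 and Pfkfb4 encode enzymes that make and remove fructose 2,6-bisphosphate, the strongest activator of phosphofructokinase. Pfkfb4 (chr9:108988272-109032236) was at 14.2, 13.1 and 13.0 FPKM in WT and 10.3, 10.5 and 10.9 FPKM in KO, with every KO library below every WT library. It fell by 0.37 ± 0.096 on the log2 scale (adjusted p = 0.0236). Pfkfb3, the isoenzyme that mostly drives glycolysis forward and that is induced by LPS in macrophages, was at 58.7, 63.2 and 62.6 FPKM in WT and 75.3, 59.0 and 63.9 FPKM in KO. The high value of KO 1 stood alone and the groups overlapped, and the log2 fold change was 0.08 ± 0.10 (adjusted p = 0.675).

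Aldoa (chr7:126795234-126800994), the main aldolase and the most abundant member, stood at 628, 624 and 652 FPKM in WT and 807, 808 and 771 FPKM in KO. Every KO library lay above WT, and Aldoa rose by 0.30 ± 0.088 on the log2 scale (adjusted p = 0.0396). Aldoc, the brain-type aldolase, stayed under 1 FPKM in each library. Tpi1, which interconverts the triose phosphates, was at 259, 292 and 270.0 FPKM in WT and 325, 349.6 and 346 FPKM in KO. Its groups did not overlap, yet the log2 fold change of 0.29 ± 0.095 missed the threshold (adjusted p = 0.0615). Gpi1, the glucose-phosphate isomerase, ran from 235 to 248 FPKM in WT and from 262 to 277 FPKM in KO, a log2 fold change of 0.14 (adjusted p = 0.361). The call of Aldoa was lost without each of the 6 libraries in turn (adjusted p of at most 0.148), and that of Pfkfb4 without KO 1, KO 3, WT 1 or WT 2 (at most 0.128). Tpi1 was called under 9 of the 20 alternatives, with adjusted p from 0.00751 to 0.0480.

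**Figure D2:**
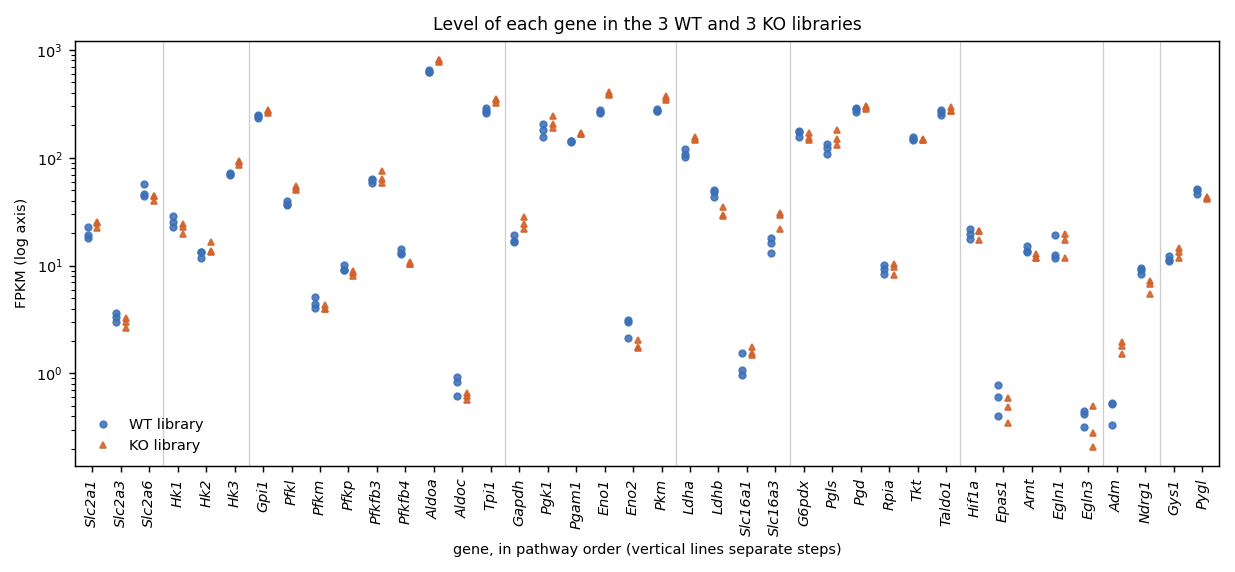
Level of each of the 40 members (horizontal axis) in FPKM on a log axis, with WT libraries as circles and KO libraries as triangles. Eno1, Pfkl, Ldha and Slc16a3 show KO points above all WT points, Ldhb shows them below, and Hif1a shows them mixed.

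In lower glycolysis, which yields ATP and pyruvate, 3 of 6 genes rose and 1 fell. Eno1 (chr4:150236708-150248879), which encodes the ubiquitous enolase, rose most clearly. It stood at 261, 269 and 276 FPKM in WT and at 387, 406 and 389 FPKM in KO, a log2 fold change of 0.53 ± 0.091 (adjusted p = 0.00253). The KO libraries lay well above WT, and no alternative ended the call. Eno1b, a retrocopy of Eno1, held 27.6% of Eno1's words, so reads of the pair cannot be cleanly divided, and it had a log2 fold change of 0.51 ± 0.10. Eno2 (chr6:124760053-124769673), the neuron-type enolase that HIF-1 can induce, went the other way at a far lower level. It was at 2.13, 3.01 and 3.11 FPKM in WT and 1.74, 1.76 and 2.02 FPKM in KO, and it fell by 0.61 ± 0.17 on the log2 scale (adjusted p = 0.0382).

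Gapdh (chr6:125161852-125166467), the dehydrogenase that makes NADH in glycolysis, was at 16.7, 19.2 and 16.9 FPKM in WT and 22.1, 28.3 and 24.5 FPKM in KO. It rose by 0.48 ± 0.12 on the log2 scale (adjusted p = 0.0233), with no overlap between groups. Its words were shared with 317 pseudogenes, and its listed level was far below that of its pathway neighbours Tpi1 (259 to 292 FPKM in WT) and Eno1 (261 to 276 FPKM in WT). Pkm (chr9:59656576-59679372), the pyruvate kinase gene whose M1 and M2 isoforms are not separated in these tables, was at 273, 283 and 271 FPKM in WT and 342, 376 and 357 FPKM in KO. Every KO library exceeded every WT library, and Pkm rose by 0.36 ± 0.090 on the log2 scale (adjusted p = 0.0210). Pgk1, which makes the first ATP of the pathway, ran from 158 to 204 FPKM in WT and 190.1 to 244 FPKM in KO, a log2 fold change of 0.22 ± 0.13 (adjusted p = 0.297). Pgam1, the phosphoglycerate mutase, gave 143 ± 0.943 FPKM in WT and 167 ± 3.04 FPKM in KO (SD, n = 3) with separate groups, but a log2 fold change of 0.20 ± 0.090 that was not called (adjusted p = 0.161). The calls were lost without KO 2, KO 3 or WT 1 for Gapdh (adjusted p of at most 0.0995), without KO 3 or WT 1 for Pkm (at most 0.0916), and without any single library other than WT 1 for Eno2 (at most 0.136). Eno2 was called under 10 of the 20 alternatives, and not without WT 3 and KO 2 together.

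The lactate branch gave the widest contrasts within the pathway. Lactate dehydrogenase is a tetramer of A chains, encoded by Ldha and favouring the reduction of pyruvate to lactate, and B chains, encoded by Ldhb and favouring the reverse. Ldha (chr7:46842274-46855627) was at 103, 119.6 and 108 FPKM in WT and 146, 155 and 149.7 FPKM in KO, and it rose by 0.43 ± 0.096 on the log2 scale (adjusted p = 0.0117). Ldhb (chr6:142490249-142507957) was at 48.2, 50.6 and 43.2 FPKM in WT and 28.9, 35.2 and 29.5 FPKM in KO, and it fell by 0.62 ± 0.12 on the log2 scale (adjusted p = 0.00490). The groups did not overlap for either gene. Slc16a3 (chr11:120948484-120959000) encodes MCT4, the transporter through which glycolytic cells export lactate. It stood at 13.2, 16.3 and 18.1 FPKM in WT and at 30.9, 22.0 and 29.4 FPKM in KO. KO 2 was the lowest of the KO libraries and still exceeded all WT libraries, and Slc16a3 rose by 0.76 ± 0.15 on the log2 scale (adjusted p = 0.00484). Slc16a1, which encodes the widely expressed transporter MCT1, lay between 0.966 and 1.77 FPKM, and its log2 fold change was 0.39 ± 0.20 (adjusted p = 0.229). Ldha was not called without WT 1 (adjusted p = 0.0737).

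Within families of isoenzymes, the main form held a higher share of the summed FPKM in every KO library for phosphofructokinase and hexokinase, and Ldhb held a lower share of lactate dehydrogenase. Pfkl made up 73.3, 70.5 and 75.0% of phosphofructokinase FPKM in WT and 80.9, 80.4 and 80.9% in KO, while the family sum went from 51.9 ± 1.07 to 65.2 ± 2.39 FPKM (SD, n = 3). Ldhb made up 31.9, 29.7 and 28.7% of Ldha plus Ldhb in WT and 16.5, 18.6 and 16.5% in KO. Hk3 made up 64.7 ± 2.18% of hexokinase FPKM in WT and 71.0 ± 1.67% in KO. Slc2a1 made up 27.4, 27.6 and 27.2% of the 3 glucose transporters in WT and 35.0, 34.7 and 34.2% in KO, a narrow spread within each group although neither Slc2a1 nor Slc2a6 passed the test on its own. Pfkfb4 made up 19.5, 17.2 and 17.1% of Pfkfb3 plus Pfkfb4 in WT and 12.0, 15.1 and 14.6% in KO. In each of these 5 shares the groups did not overlap, while the share of Slc16a3 in the 2 monocarboxylate transporters did overlap. The shares of Hk2, Slc2a3, Hif1a and Egln1 in their families overlapped too, and those of Aldoa and Eno1 did not. The shares of Pfkl, Hk3, Ldhb and Pfkfb4 rest on genes called above and are no separate result. How often such shares separate in other gene families was not tested. With 3 libraries against 3, a two-sided exact permutation test cannot go below p = 0.1, so the shares are given as values.

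**Figure D3:**
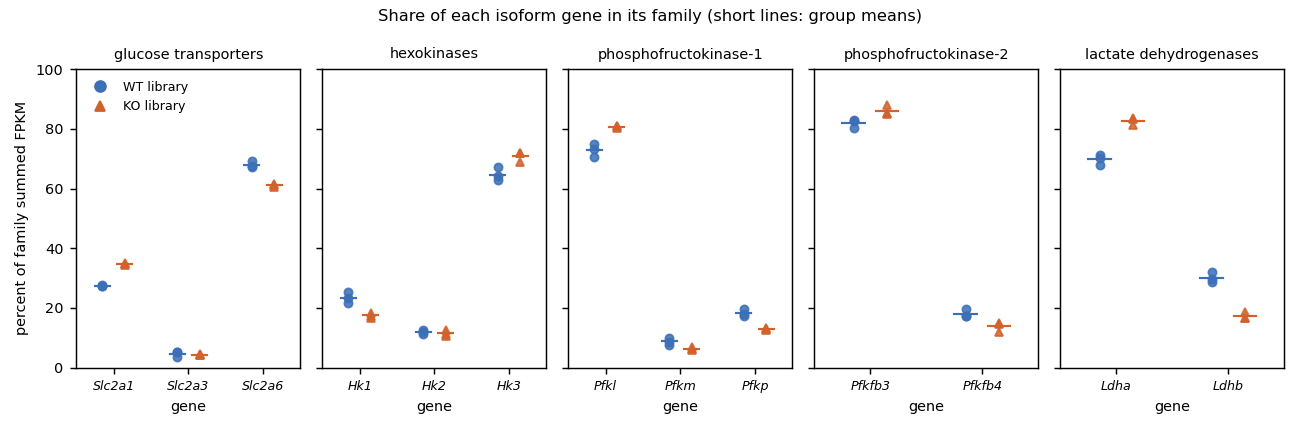
Share of the summed FPKM of a family taken by single isoenzymes, in percent (vertical axis), with WT libraries as circles, KO libraries as triangles and group means as short lines. The share of Ldhb lies between 28.7 and 31.9% in WT and between 16.5 and 18.6% in KO, and that of Pfkl is higher in every KO library than in any WT library.

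None of the pentose phosphate genes was called. G6pdx, the NADPH-making dehydrogenase that opens the pathway, was at 177, 175 and 157 FPKM in WT and 153, 169 and 147 FPKM in KO, and the groups overlapped. Its log2 fold change was -0.14 ± 0.10 (adjusted p = 0.418), and 13.6% of its exon bases overlap Ikbkg on the other strand. Pgd, the dehydrogenase that makes NADPH again, Tkt and Taldo1, which shuttle carbons back to glycolysis, and Rpia, the ribose-phosphate isomerase, had log2 fold changes of 0.05 ± 0.091, -0.05 ± 0.089, 0.06 ± 0.095 and 0.01 ± 0.13, each with an adjusted p above 0.7. Pgls, the lactonase between G6pdx and Pgd, stood at 109.7, 123 and 135 FPKM in WT and 151, 130.3 and 182 FPKM in KO, a log2 fold change of 0.30 ± 0.13 (adjusted p = 0.144). KO 2 lay below WT 3 for Pgls, so the groups overlapped, and 20.6% of its exon bases are shared with Fam129c on the same strand. With 0 of 6 called by edgeR, 1 gene (Pgls) had an unadjusted p under 0.05, and DESeq2 and limma-voom called 0. Of 11 further pentose phosphate and ribose genes tested, edgeR, DESeq2 and limma-voom called 0, 0 had an unadjusted p under 0.05, and their median log2 fold change was -0.05. Without WT 3 and KO 2, Pgls (0.47, adjusted p = 0.00353) and G6pdx (-0.27, adjusted p = 0.0344) were called, as were 1 of the 11 further genes in the higher direction and 2 in the lower. Without KO 2 alone, Pgls (adjusted p = 0.0454) and 1 of the 11 further genes were called higher.

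The HIF subunits and prolyl hydroxylases did not pass the test either. Hif1a (chr12:73901324-73947554), the oxygen-labile subunit, was at 17.6, 19.8 and 21.8 FPKM in WT and 20.8, 17.3 and 20.9 FPKM in KO. The groups overlapped and the log2 fold change was -0.03 ± 0.11 (adjusted p = 0.894). HIF-1 alpha is controlled mostly at the level of protein, which was not measured here. Arnt, its partner, was lower in every KO library than in any WT library, at a log2 fold change of -0.24 ± 0.10 (adjusted p = 0.144), and Epas1, which encodes HIF-2 alpha, stayed under 1 FPKM in each library at a log2 fold change of -0.37 ± 0.30 (adjusted p = 0.475).

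Egln1 (chr8:124908587-124949254), which encodes the main prolyl hydroxylase PHD2 and is itself a HIF target, was at 11.8, 12.6 and 19.1 FPKM in WT and 19.6, 11.8 and 17.4 FPKM in KO. WT 3, KO 1 and KO 3 were high and the other libraries low, whatever their genotype, which is the division seen on the second principal component. Its log2 fold change was 0.13 ± 0.20 (adjusted p = 0.730), and 0.56 (adjusted p = 6.74e-04) without WT 3 and KO 2. The libraries left in that fit differ by group on the second component too, so its smaller p cannot be read as genotype alone. Egln3, the prolyl hydroxylase PHD3 and a HIF target, was scarce at 0.319, 0.451 and 0.421 FPKM in WT and 0.499, 0.210 and 0.279 FPKM in KO, a log2 fold change of -0.30 ± 0.38 (adjusted p = 0.667). With 0 of 5 of these genes called by edgeR, 1 (Arnt) had an unadjusted p under 0.05, and DESeq2 and limma-voom called 0.

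**Figure D4:**
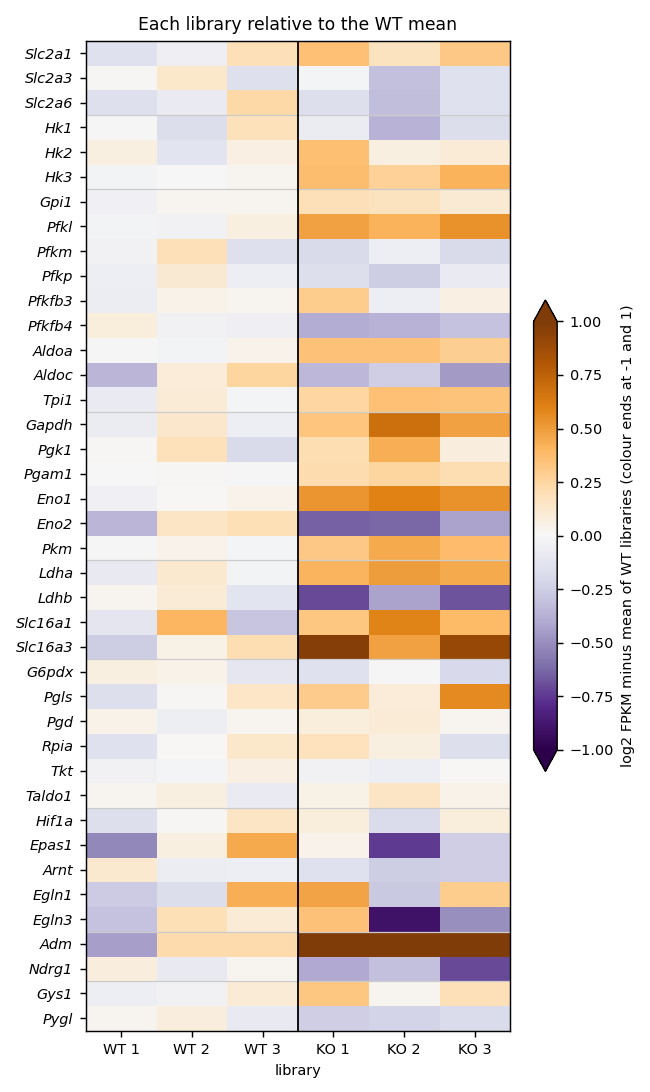
Heat map of the log2 FPKM of each member (vertical axis) in each library (horizontal axis) minus its mean over the WT libraries, with orange above and purple below that mean and colours ending at -1 and 1. Egln1 is high in WT 3, KO 1 and KO 3, whereas Slc16a3, Adm and Eno1 are higher in all 3 KO libraries than in any WT library.

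The other 2 hypoxia targets among the members moved in opposite directions. Adm (chr7:110627657-110629820), which encodes the vasodilator adrenomedullin, stood at 0.331, 0.525 and 0.526 FPKM in WT and 1.81, 1.97 and 1.52 FPKM in KO. These values rest on 16, 29 and 30 counts in WT and 89, 102 and 69 in KO. Adm rose by 1.91 ± 0.31 on the log2 scale (adjusted p = 0.00191), and the groups did not overlap. It lay under 1 CPM and 1 FPKM in WT, so it passed the filters at those levels only through KO. Ndrg1 (chr15:66929318-66969641), a stress gene that responds strongly to hypoxia in many cells, was at 9.42, 8.44 and 9.07 FPKM in WT and 6.79, 7.22 and 5.50 FPKM in KO. It fell by 0.48 ± 0.13 on the log2 scale (adjusted p = 0.0302) with no overlap between groups, and the call was lost without any single library other than KO 2 (adjusted p of at most 0.123).

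Of 35 further HIF targets tested, 11 rose in KO and 5 fell, with a median log2 fold change of 0.19. Over all tested genes 8.44% rose and 6.21% fell. Ccn2, a matricellular protein gene, rose by 1.46 ± 0.13 on the log2 scale (adjusted p = 3.39e-05). P4ha2 and Plod2, which hydroxylate collagen, rose by 1.81 ± 0.24 (adjusted p = 4.76e-04) and 1.48 ± 0.23 (adjusted p = 0.00135). Tfrc, the transferrin receptor, went from 40.3, 41.9 and 40.7 FPKM in WT to 24.8, 21.7 and 26.6 FPKM in KO and fell by 0.77 ± 0.098 on the log2 scale (adjusted p = 3.75e-04). Angptl4, a secreted lipase inhibitor, rose by 1.54 (adjusted p = 0.00424). The stromal marker sums given above, 249 to 297 CPM in WT against 626 to 746 CPM in KO, were higher in KO as well. In KO replicates 1, 2 and 3 the stromal sum was 746, 626 and 704 CPM. Any link between stromal markers and the genes that rose was not tested. Leaving out each library in turn left 7 to 10 of the 35 higher (7 without WT 1 or KO 3) and 2 to 4 lower (2 without WT 2, KO 1, KO 2 or KO 3). The number lower was 3 with upper-quartile scaling, column totals or the 1 CPM filter, and 2 or 3 by limma-trend. Of 17 further components of the HIF pathway, edgeR with all libraries and TMM scaling called Hif3a, which rose by 0.84 ± 0.20 on the log2 scale (adjusted p = 0.0159) from 1.08, 0.627 and 0.999 FPKM to 1.83, 1.39 and 1.72 FPKM. Its call was lost without KO 1 or KO 3 (adjusted p of at most 0.0578), and 0 of the 17 were higher without KO 3. It was 2 of the 17 by DESeq2, by limma-trend on log2 FPKM, and by edgeR with upper-quartile scaling, column totals, the 1 CPM filter or the replicate block. Without WT 3 and KO 2, 4 of the 17 were higher and 1 lower.

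The 2 glycogen genes on the list were not called. Gys1, the glycogen synthase, ran from 11.1 to 12.4 FPKM in WT and 11.8 to 14.5 FPKM in KO, a log2 fold change of 0.16 ± 0.11 (adjusted p = 0.368). Pygl, the glycogen phosphorylase of liver and myeloid cells, was lower in every KO library, at 42.3 ± 0.978 FPKM against 49.2 ± 2.90 FPKM in WT (SD, n = 3), but its log2 fold change of -0.24 ± 0.094 was not called (adjusted p = 0.117). Pygl had the only unadjusted p under 0.05 of the pair, DESeq2 and limma-voom called 0, and without WT 3 and KO 2 it was called (-0.30, adjusted p = 0.0193). Of 16 further glycogen genes 3 fell and 0 rose by edgeR's test, against 6.21% and 8.44% of all tested genes. In the higher direction 2 had an unadjusted p under 0.05, and DESeq2 and limma-voom called 0. Limma-trend on log2 FPKM, without the 1 FPKM filter, and edgeR without WT 3 and KO 2 called 1 higher, and 1 was lower without WT 2 or without KO 3. Epm2a, the glycogen phosphatase laforin, went from 1.98, 1.94 and 1.90 FPKM to 0.816, 0.822 and 0.795 FPKM and fell by 1.28 ± 0.27 on the log2 scale (adjusted p = 0.00935). Gyg, the primer of glycogen synthesis, went from 31.6, 42.6 and 33.4 FPKM to 26.4, 23.5 and 25.3 FPKM and fell by 0.54 (adjusted p = 0.0119). Phkb, a subunit of phosphorylase kinase, fell by 0.42 (adjusted p = 0.0433). Phkb was called under 5 of the 20 alternatives and not without any 1 of the 6 libraries (adjusted p of at most 0.186) or without WT 3 and KO 2 (0.0532), and Gyg not without WT 2 or KO 3 (at most 0.0543).

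Of 28 further genes that handle glucose or its products, 5 rose and 3 fell, with a median log2 fold change of 0.01. The shares over all tested genes were 8.44% higher and 6.21% lower. Eno1b, counted among the 5, shared 81.5% of its words with Eno1, so its rise cannot be cleanly divided from that of Eno1. Beside Eno1b, Tigar, a phosphatase that lowers fructose 2,6-bisphosphate, rose by 0.54 on the log2 scale (adjusted p = 0.0198). Me1, the cytosolic malic enzyme that makes NADPH outside the pentose phosphate pathway, rose by 0.69 (adjusted p = 0.0155), and the galactose kinase Galk1 rose by 0.47 (adjusted p = 0.0216). Gpd1l, related to glycerol-phosphate dehydrogenase, fell by 0.41 (adjusted p = 0.0151). Slc16a6, a monocarboxylate transporter relative, rose by 0.40 (adjusted p = 0.0350). The other two that fell were Pfkfb2 (log2 fold change -0.43) and Galm (-0.49), called under 3 and 7 of the 20 alternatives. The count of 3 lower was 1 under limma-voom, limma-trend, median-ratio, upper-quartile or column-total scaling and the 1 CPM filter, 6 with the replicate block, and 0 without WT 1, WT 2, KO 1 or KO 3. The count of 5 higher was 1 without WT 2 and 3 without WT 1, KO 1 or KO 3. Each of the calls of the genes that rose, other than Eno1b, and that of Gpd1l was lost without some single library. These were WT 2 and KO 3 for Me1, WT 2, WT 3 and KO 1 for Tigar, WT 1, WT 2 and KO 3 for Galk1, WT 1, WT 2, KO 1 and KO 3 for Gpd1l, and any library other than KO 3 for Slc16a6. Without WT 3 and KO 2 together, Tigar (adjusted p = 0.0561) and Slc16a6 (0.0583) were not called.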

How the data were processed

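RNA was measured in 3 WT and 3 KO libraries of LPS-treated BMDMs, grouped by their titles. Libraries were made with a stranded total RNA kit, per the labels' protocols. Per the submitters' processing notes, the tools included HTSeq, HISAT2 and fastp, with mm10 as the build; the strand setting used in counting is not given in the sources used here. The values deposited by the authors are whole-number counts for each gene and, separately, FPKM, which matched the counts scaled by gene length and library total (99.99% of the 73203 entries, gene by library, with 10 or more counts lay within 1%). Counts were filtered with filterByExpr, scaled by TMM and tested with edgeR's quasi-likelihood test (edgeR 4.0.16, R 4.3.3), without a block, and p-values were adjusted by Benjamini-Hochberg over all 12219 genes tested. A gene was called at an adjusted p under 0.05. Levels are the deposited FPKM, and fold changes come from the counts. The scripts were tested on simulated data, with 50 genes drawn from all tested genes changed at each size. The test called 2, 26, 74 and 86% of the genes changed by 1.2, 1.5, 2 and 4 fold. Of its calls 6% were of unchanged genes. A gene that was not called is therefore not shown to be unchanged. Far fewer genes were changed in the simulation than the 1790 called in the data, and they were not matched to the members in level. The simulated rates need not hold for the members.

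The members and the related lists were chosen with earlier results of these data known. By rule, values in every library are given for called members and for Slc2a1, Hk2, Pfkfb3, G6pdx, Hif1a and Egln3, and of each related list up to 6 called genes of smallest adjusted p are named. The values of 1 gene that this rule names are not reported here. Values of other members, such as Tpi1, Pgls and Egln1, were added after they were seen. Coordinates and promoters are from RefSeq (GRCm38.p6), to which 16189 of 16266 genes matched by Entrez number. For genes with several windows, the window with most matches was printed, and a match in any window counted toward the shares. This favours matches in genes with more windows, and the shares were not corrected for it. Words of 32 bases were compared across GENCODE M21 transcripts. No other columns of per-sample values were present. Replicates of a group differed beyond counting noise. The alternatives were DESeq2 1.42.0, limma 3.58.1 (voom, and trend on log2 FPKM with 2 pseudocounts and filters), other scalings and filters, removal of a trend with length, the replicate block, and leaving out libraries. Floors cover counting error only.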

Additional observations from a re-analysis of the deposited data

How the results depend on the processing

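The 40 members were refitted under 20 alternatives, which gave 732 values of the same direction and side of the threshold, 35 that lost a call, 17 that gained one and 13 that changed sign. Leaving out each library in turn gave 1119 to 1741 genes called (1790 with all libraries), 4 to 8 members higher and 1 to 3 lower. The lowest counts were 4 higher without WT 1 and 1 lower without WT 2, KO 1 or KO 3. Without both WT 3 and KO 2, 3186 genes were called, with 12 members higher and 5 lower. Of these 17 members 12 were among the 13 called with all libraries, Eno2 was lost, and Slc2a1, Egln1, Pgls, G6pdx and Pygl were added. The 4 libraries left differ by group on the second component too, so this cannot be read as genotype alone. With the replicate number as a block, edgeR called 2526 genes and DESeq2 2281, each with 11 members higher and 4 lower; all 13 remained, with Tpi1 and Pgls added. Libraries were correlated on log2 CPM after each gene's mean within its genotype was subtracted. Same-numbered libraries then had correlations of -0.098, 0.23 and 0.18, and not every library correlated best with its own number. The numbers are therefore not shown to pair them. The members' median log2 fold change was 0.15 with limma-trend on genes of at least 1 FPKM, which leaves 37 members. That filter drops Aldoc, Epas1 and Egln3, whose log2 fold changes were negative, and keeps Adm only through its KO libraries. The members that changed sign were not called in either case. Removing a trend with length gave -0.010 for Rpia, -0.0046 for Taldo1 and 0.028 for Hif1a. Without WT 3 and KO 2 the values were -0.034 for Taldo1, 0.11 for Hif1a and 0.056 for Epas1. Leaving out single libraries gave ranges of -0.060 to 0.12 for Rpia, -0.11 to 0.059 for Hif1a, -0.0026 to 0.40 for Egln1 and -0.00037 to 0.14 for Pfkfb3. The cause of these changes was not tested. Depth limits Adm, Egln3, Epas1 and Aldoc most, which have the fewest counts.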
